A study of Mus musculus with 12 samples.

Results

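Ezrin (Ezr), radixin (Rdx), moesin (Msn), merlin (Nf2) and the hyaluronan receptor CD44 (Cd44) were followed in the mouse osteosarcoma cell lines Dunn and LM8. Their probes were found by the RefSeq accession that the array files give for each probe, without regard to the measured signals. The genes themselves were chosen with earlier results of these data known. This gave 10 of the 39429 probes and 5 of the 20144 genes with a matched RefSeq accession. Ezr and Msn had 1 probe each, Rdx and Nf2 2 each and Cd44 4, and the genes lie on chromosomes 17 (Ezr), 9 (Rdx), X (Msn), 11 (Nf2) and 2 (Cd44).

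Dunn is the parental line and metastasises little, whereas LM8 was derived from it in mice by selecting for metastasis to the lung. Dunn cells were measured at passage 25 (Dunn_25) and passage 86 (Dunn_86), LM8 cells at passage 24 (LM8_24) and passage 91 (LM8_91), with 3 arrays in each group. The labels name no drug, transgene or knockdown for any group. All cells were grown in the same medium with fetal calf serum, late passage cells descended from the early ones, and frozen cells of both were thawed and cultured again before RNA was taken. Each group is a single cell line, so that a difference between LM8 and Dunn is a difference between 1 derivative and its parent. Nothing states that the 3 samples of a group came from separate cultures, so p-values measure the spread between these samples, which may be technical. The labels call both lines osteoblastic. Of 11 osteoblast lineage genes with a probe, 5 to 10 were well above background on every array of a group, among them Runx2, Sp7, Col1a1 and Ibsp in each group, and Postn was so on no array. None of the 6 epithelial genes was well above background on all arrays of a group. Among 7 leukocyte genes, Laptm5 was below that limit on all 12 arrays, whereas Itgam, Csf1r and Cd3e were above it on all 12.

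Values are log2 signals minus the 75th percentile of the array, so that 0 is the level of a probe at the upper quartile of its array and a step of 1 is a doubling. The 75th percentile itself ranged from 287.2 to 961.4 signal units on the Dunn arrays and from 893 to 1903 on the LM8 arrays. From Dunn_25 to Dunn_86 it rose on every slide (386.5 to 756.6, 603 to 961.4 and 287.2 to 685.9). The same held from LM8_24 to LM8_91 (893 to 1166, 1316 to 1903 and 1207 to 1365). Brightness thus moved with the cell line and with passage, and its part in the differences given here was not tested. After scaling, the median difference of LM8 minus Dunn was -0.78 over all probes and -0.37 over the 12750 probes that were well above background on all 12 arrays (bright probes), and member differences are also given relative to the latter. The third Dunn_25 array was the dimmest and had 1483 spots flagged as outliers, against 133 to 1113 on the other 11 arrays. Of these 1483 spots, 1324 were brighter than the array's 75th percentile, which was 379.1 with flagged spots kept and 287.2 without them. Leaving them out thus raised all scaled values of that array. With flagged spots kept on all arrays, the median difference of bright probes was -0.23. Each slide carried 1 array of every group at the same position, so position and group cannot be told apart.

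Ezrin, radixin and moesin (the ERM proteins) tie membrane proteins to cortical actin. Their aminoterminal FERM domain binds the cytoplasmic tails of receptors such as CD44, and their carboxyterminal end binds actin filaments once the folded protein has been opened by phosphoinositide binding and threonine phosphorylation. Merlin has the same FERM domain but lacks the typical actin-binding end, acts as a tumour suppressor and signals to the Hippo kinases. CD44 is the main cell surface receptor for hyaluronan and is shed by metalloproteinases. Ezrin is known for its role in lung metastasis of mouse and human osteosarcoma cells, and CD44 for adhesion and migration of these cells.

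Between the cell lines, 3 of the 5 genes had a probe that was down-regulated in LM8 as compared to Dunn cells when passages were pooled. Ezr, the brightest probe of Cd44 and the dimmer probe of Rdx were each lower by about 1 on the log2 scale, without overlap between the 6 Dunn and the 6 LM8 arrays, and a dim Cd44 probe passed the test with overlapping arrays. Msn, Nf2 and the brighter Rdx probe did not pass the test. In total 4 of 10 member probes were called (limma, adjusted p under 0.05), all lower in LM8, where 43.1% of all 39425 probes tested were called and 37.5% were called lower. The call alone therefore does not set the members apart. The split over all probes depended on the scaling, with 5.54% called higher and 37.5% lower as scaled here, 5.31% and 11.7% after quantile normalization, 7.02% and 6.27% with the percentile taken over probes well above background, 4.16% and 65.8% after normexp, and 21.2% and 1.2% without scaling. It also depended on the flagged spots, with 5.47% called higher and 11.6% lower when these were kept. The share of all probes called was 11% to 53.7% when single arrays were left out. Arrays of the lines did not overlap, with LM8 lower, for 3 of 10 member probes, as compared to 10.6% of all probes. All 3 were among the 6 member probes that were bright, and the share over all bright probes was 22.4%. No member probe was called between late and early passages in either line, and none had a passage effect that differed between the lines.

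**Figure D1:**
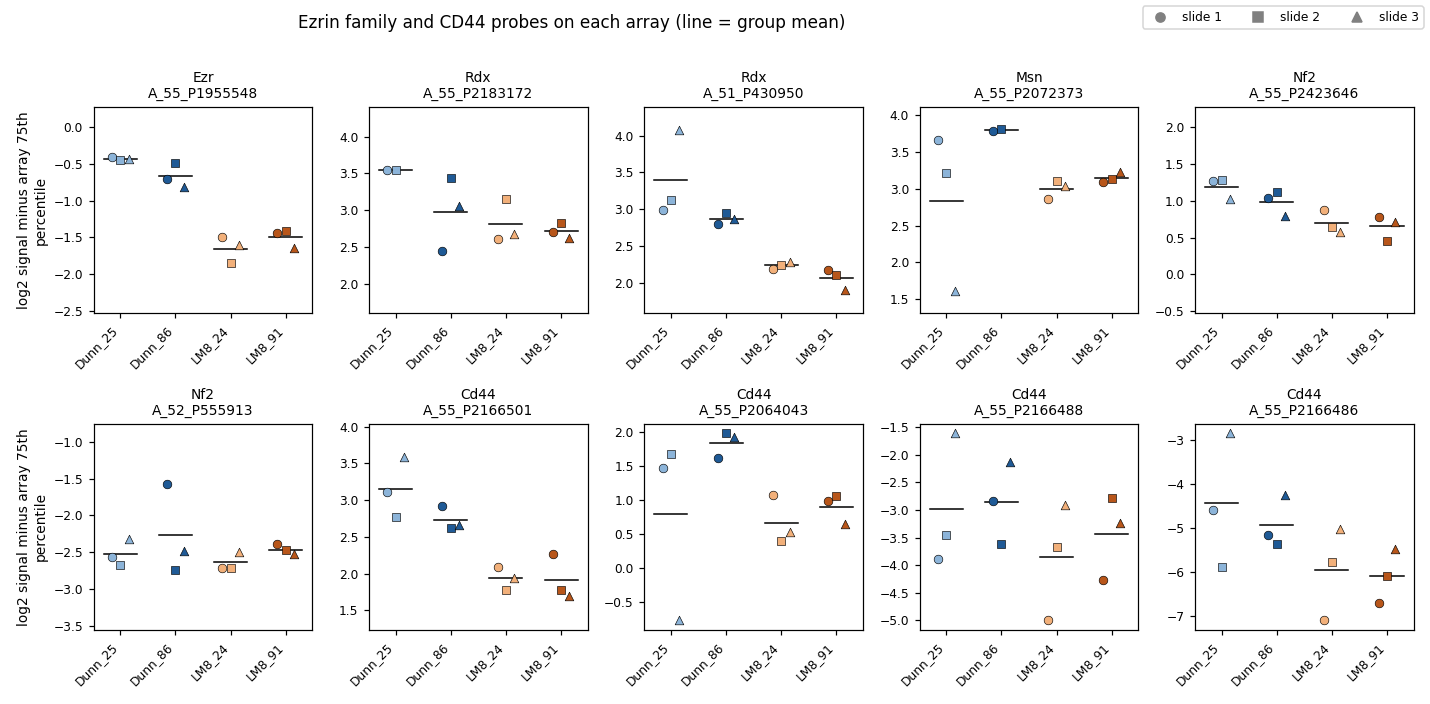
Log2 signal minus the array's 75th percentile (y axis) of each of the 10 member probes in the 4 groups (x axis), with a point for each array, a symbol for each slide and a line at the group mean. Ezr, Rdx A_51_P430950 and Cd44 A_55_P2166501 separate the Dunn from the LM8 arrays, whereas the third Dunn_25 array (triangle) lies far from its group in Msn and in Cd44 A_55_P2064043.

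Ezr encodes ezrin, the ERM protein typical of microvilli and of epithelial cells. Its probe A_55_P1955548 read -0.41, -0.45 and -0.44 in Dunn_25 and -0.70, -0.49 and -0.82 in Dunn_86. The LM8_24 arrays read -1.50, -1.85 and -1.61, and the LM8_91 arrays -1.44, -1.41 and -1.65. All 6 LM8 arrays were below all 6 Dunn arrays, and both passages of a line lay close together. The Ezr probe was 2.04-fold lower in LM8 with passages pooled (log2 difference -1.03, SE 0.16, limma adjusted p = 0.0015), which is -0.66 relative to the median of bright probes. Of the bright probes, 10% had a lower difference. At early passages the difference was -1.22 (SE 0.29, adjusted p = 0.0706) and at late passages -0.83 (SE 0.22, adjusted p = 0.133), so neither passage alone passed the test. Within the 3 slides the difference ranged from -1.40 to -1.09 at early and from -0.92 to -0.74 at late passages.

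The unscaled signals of Ezr were 212 to 685 in Dunn and 315 to 718 in LM8 cells, and the direction of the Ezr, Rdx and Cd44 differences rests on the scaling between arrays. In the deposited table without scaling, the pooled difference of Ezr was 0.14, that of Rdx A_51_P430950 0.18 and that of Cd44 A_55_P2166501 0.15, while the median of bright probes stood at 0.80. Relative to the median of bright probes in the same setting, the difference was -0.77 to -0.66 for Ezr, -0.66 to -0.50 for Cd44 A_55_P2166501 and -0.62 to -0.29 for Rdx A_51_P430950 over the alternatives, the table without scaling included.

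Rdx encodes radixin, the ERM protein first found in adherens junctions and known for stereocilia and liver canaliculi. The files assign its 2 probes to different RefSeq transcripts of the gene. The brighter one, A_55_P2183172, is fitted without the third Dunn_25 array, where its spot was flagged. It read 3.55 and 3.54 in Dunn_25, 2.45, 3.44 and 3.05 in Dunn_86, 2.61, 3.15 and 2.67 in LM8_24 and 2.70, 2.82 and 2.62 in LM8_91. The first Dunn_86 array lay below all LM8 arrays, so the lines overlapped. The pooled difference was -0.44 (SE 0.24, adjusted p = 0.142), which is -0.08 relative to bright probes.

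The dimmer Rdx probe A_51_P430950 read 2.99, 3.12 and 4.07 in Dunn_25, 2.79, 2.95 and 2.86 in Dunn_86, 2.18, 2.24 and 2.28 in LM8_24 and 2.17, 2.10 and 1.90 in LM8_91. The Dunn arrays were all higher than the LM8 arrays, with the third Dunn_25 array far above the rest. This probe was 1.98-fold lower in LM8 (log2 difference -0.99, SE 0.23, adjusted p = 0.0127), or -0.62 relative to bright probes. Its differences by passage were -1.16 (adjusted p = 0.0775) early and -0.81 (adjusted p = 0.127) late, and every slide gave a negative value at both passages, from -1.79 to -0.62. The difference between both Rdx probes was not tested, and the call of Rdx stands for the dimmer one only.

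Msn encodes moesin, the ERM protein that prevails in leukocytes and endothelium and is also abundant in mesenchymal cells. Its probe A_55_P2072373 is fitted without the third Dunn_86 array, where its spot was flagged. The Dunn_25 arrays read 3.66, 3.22 and 1.61 and the Dunn_86 arrays 3.79 and 3.81, while LM8_24 read 2.86, 3.11 and 3.04 and LM8_91 3.09, 3.13 and 3.23. The third Dunn_25 array was the lowest of all, while the lowest of the other Dunn arrays (3.22) was just below the highest LM8 array (3.23). With all arrays that had a value, the pooled difference was -0.14 (SE 0.37, adjusted p = 0.756). Leaving out that Dunn_25 array gave -0.55 with an adjusted p of 0.0631. At late passages both remaining Dunn_86 arrays were above all LM8_91 arrays, with a difference of -0.65 (SE 0.24, adjusted p = 0.252), and at early passages the difference was 0.17 (SE 0.55, adjusted p = 0.823).

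Nf2 encodes merlin. The brighter probe A_55_P2423646 read 1.27, 1.29 and 1.03 in Dunn_25, 1.04, 1.12 and 0.79 in Dunn_86, 0.88, 0.64 and 0.58 in LM8_24 and 0.78, 0.46 and 0.72 in LM8_91. The lowest Dunn and the highest LM8 array overlapped. Its pooled difference of -0.41 (SE 0.16, adjusted p = 0.0571) was just short of the threshold and was -0.04 relative to bright probes, which is the size of the general shift. The second probe A_52_P555913 ranged from -2.74 to -1.57 in Dunn and from -2.71 to -2.39 in LM8 cells, with a difference of -0.16 (SE 0.22, adjusted p = 0.546). The first Dunn_86 array, at -1.57, stood apart from the other 5 Dunn arrays.

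Cd44 had 4 probes, all assigned to the same RefSeq transcript. CD44 pre-mRNA is spliced into many variants, and the array files do not give the exons that these probes cover. The brightest probe A_55_P2166501 read 3.11, 2.77 and 3.58 in Dunn_25, 2.92, 2.62 and 2.66 in Dunn_86, 2.09, 1.78 and 1.94 in LM8_24 and 2.27, 1.78 and 1.69 in LM8_91. All LM8 arrays were below all Dunn arrays. It was 2.03-fold lower in LM8 (log2 difference -1.02, SE 0.21, adjusted p = 0.00695), or -0.65 relative to bright probes. The early difference was -1.22 (adjusted p = 0.0775) and the late one -0.82 (adjusted p = 0.186), and the 3 slides gave -1.64 to -0.99 early and -0.97 to -0.65 late.

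The probe A_55_P2064043 of Cd44 read 1.47, 1.67 and -0.77 in Dunn_25, 1.62, 1.98 and 1.92 in Dunn_86, 1.07, 0.39 and 0.53 in LM8_24 and 0.98, 1.06 and 0.64 in LM8_91. Except for the third Dunn_25 array, which was the lowest of all 12, the Dunn arrays were above all LM8 arrays. The pooled difference was -0.54 (SE 0.42, adjusted p = 0.293) with all arrays and -0.96 (adjusted p = 0.00967) without that array. On the same array, the brightest Cd44 probe was at its highest value, so that both probes stood at opposite ends of their Dunn values there. The signal of A_55_P2064043 was 169 units on this array and 1070 to 3970 on the other arrays, and that of A_55_P2166501 was 3440 units.

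The remaining Cd44 probes were dim. A_55_P2166488 was well above background on 5 of 6 Dunn and all 6 LM8 arrays, ranged from -3.89 to -1.61 in Dunn and from -5.00 to -2.79 in LM8 cells, and differed by -0.72 (SE 0.48, adjusted p = 0.219). A_55_P2166486 was well above background on 3 Dunn and 4 LM8 arrays and ranged from -5.89 to -2.85 in Dunn and from -7.11 to -5.03 in LM8 cells. Its difference of -1.35 (SE 0.51, adjusted p = 0.0475) was called although the lines overlapped. The 9917 probes that were well above background on no array had a median difference of -1.57, and leaving out 1 array at a time kept this call in 2 of 12 fits.

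**Figure D2:**
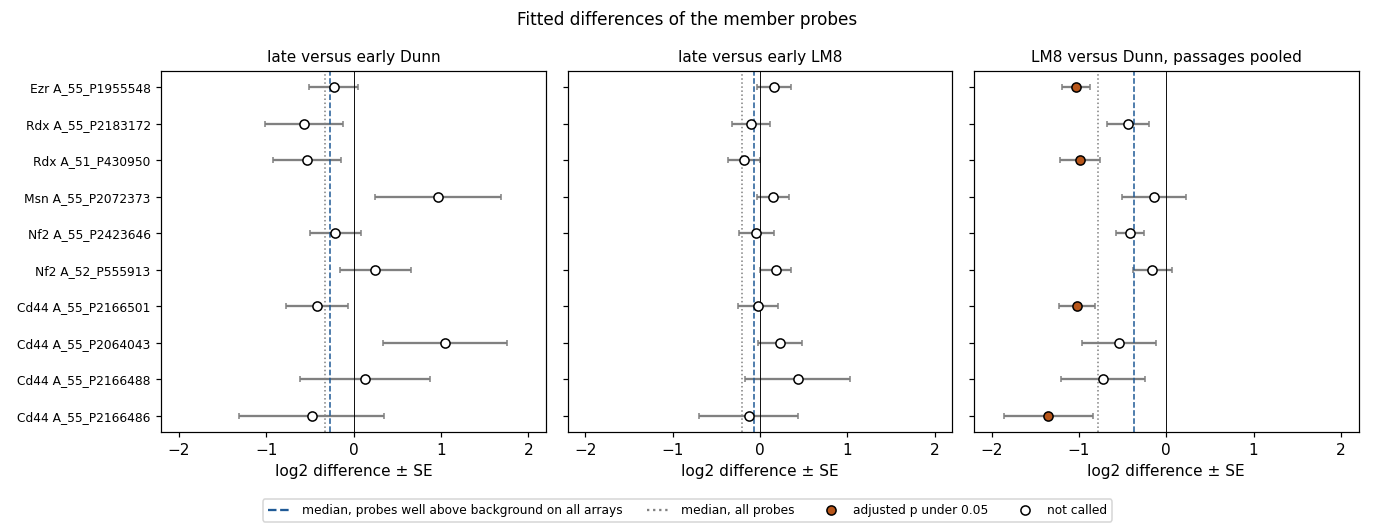
Fitted log2 difference with its SE (x axis) of the 10 member probes (y axis) for late versus early Dunn, late versus early LM8 and LM8 versus Dunn with passages pooled. Filled points have an adjusted p under 0.05, the dashed line is the median of bright probes and the dotted line that of all probes. In the line comparison 4 probes are filled, all to the left of both medians, and none is filled in the passage comparisons.

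The calls of Ezr, Cd44 A_55_P2166501 and Rdx A_51_P430950 did not rest on any single array. Leaving out each of the 12 arrays in turn gave pooled differences of -1.08 to -0.97 for Ezr (adjusted p from 0.00238 to 0.00572), -1.09 to -0.89 for Cd44 (0.00618 to 0.0215) and -1.06 to -0.80 for Rdx (0.00631 to 0.0351). The third Dunn_25 and the first Dunn_86 array each stood apart from the other Dunn arrays in a member probe. Without both, the differences were -1.03 for Ezr (adjusted p = 0.00544), -0.87 for Cd44 A_55_P2166501 (0.0197), -0.84 for Rdx A_51_P430950 (0.0106) and -0.98 for Cd44 A_55_P2064043 (0.0179). The count stayed at 4 there, with Cd44 A_55_P2064043 in place of the dim A_55_P2166486. Of all probes, 10.1% were called in that fit, as compared to 43.1% with all arrays.

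**Figure D3:**
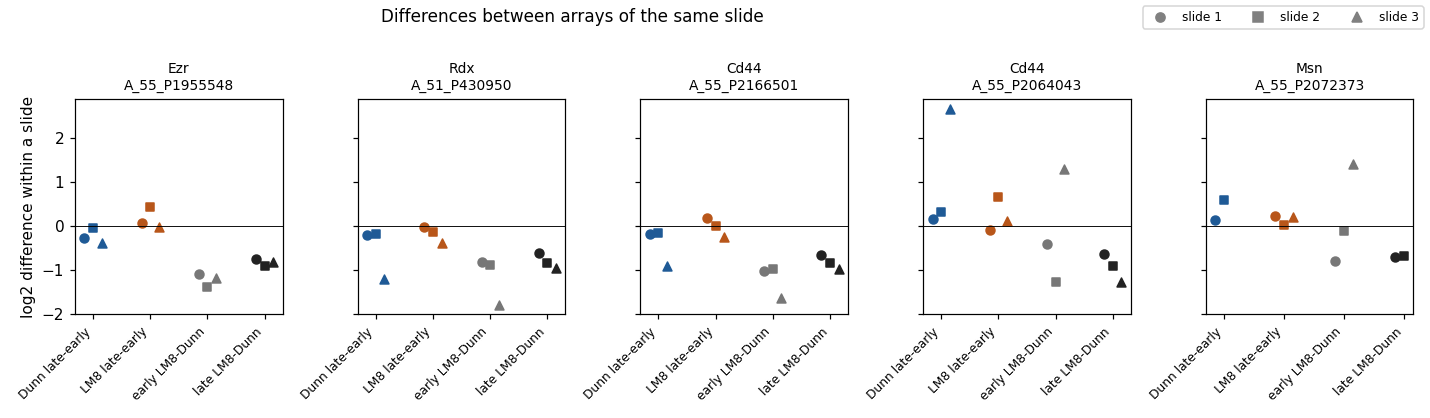
Log2 difference between arrays of the same slide (y axis) for 4 contrasts (x axis), with a symbol for each of the 3 slides. The line differences of Ezr, Rdx A_51_P430950 and Cd44 A_55_P2166501 are negative on every slide at both passages, whereas slide 3 gives positive early differences in Cd44 A_55_P2064043 (1.30) and Msn (1.42).

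When each passage was taken alone, no member probe was called. At early passages (LM8_24 and Dunn_25), 0 of 10 were called by limma, where 3.75% of all probes were called. An unadjusted p under 0.05 was seen for 3 of 10 members and 43.2% of all probes. After Benjamini-Hochberg adjustment, the methods' t-test called 1 member and 2.64% of all probes. Here arrays did not overlap with LM8 lower for 5 member probes and for 46% of all probes. At late passages (LM8_91 and Dunn_86), 0 of 10 were called by limma, where 2.91% of all probes were called. An unadjusted p under 0.05 was seen for 6 of 10 members and 19.6% of all probes. The methods' t-test called 3 members and 4.91% of all probes. Here arrays did not overlap with LM8 lower for 7 member probes and for 41.7% of all probes. Differences ranged from -1.52 to 0.17 early and from -1.18 to -0.20 late.

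Serial passaging gave no called change in the ezrin family or Cd44. In Dunn cells, 0 of 10 member probes were called by limma, 0 had an unadjusted p under 0.05, and the methods' t-test called 0 as well. Of all probes, 0.00256% were called and 5.32% had an unadjusted p under 0.05, and differences of the members ranged from -0.57 to 1.05. The values of Cd44 A_55_P2064043 (1.05, SE 0.71) and Msn (0.97, SE 0.72) included the third Dunn_25 array, which was low for both. The difference was -0.23 (SE 0.28) for Ezr, -0.42 (SE 0.35) for Cd44 A_55_P2166501 and -0.53 (SE 0.39) for Rdx A_51_P430950. All these values were fitted without pairing by slide. With the slide as a block, the Msn difference was 0.36.

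In LM8 cells, 0 of 10 member probes were called between passages 91 and 24, where 2.19% of all probes were called. Again 0 had an unadjusted p under 0.05, as compared to 15.6% of all probes, and the methods' t-test called 0, as compared to 0.835% of all probes. The differences were small, from -0.18 to 0.43. For Ezr the difference was 0.16 (SE 0.19), for Msn 0.15 (SE 0.18), for Nf2 A_55_P2423646 -0.04 (SE 0.20) and for Cd44 A_55_P2166501 -0.02 (SE 0.23). The passage effect did not pass a test of difference between the lines for any member (limma, 0 of 10 called and 0.435% of all probes, with 0 of 10 and 5.53% of all probes at an unadjusted p under 0.05, members' unadjusted p from 0.208 to 0.866).

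The sequences before the annotated starts of the 3 genes with a called and separated probe are shown to give the regulatory context in which they lie. They were taken from RefSeq on the GRCm38.p6 build, 250 bases each, written 5′ to 3′ on the strand of the gene. The Ezr window is chr17:6782781-6783030, minus strand, the Cd44 window chr2:102901666-102901915, minus strand, and Rdx has 2 annotated starts, with the windows chr9:52046900-52047149, plus strand and chr9:52047691-52047940, plus strand. Capitals mark matches on either strand to the AP-1 motif TGACTCA, the GC box GGGCGG, the CCAAT box CCAAT and the E-box CACGTG, and these motifs were chosen after the sequences had been seen.
Ezr: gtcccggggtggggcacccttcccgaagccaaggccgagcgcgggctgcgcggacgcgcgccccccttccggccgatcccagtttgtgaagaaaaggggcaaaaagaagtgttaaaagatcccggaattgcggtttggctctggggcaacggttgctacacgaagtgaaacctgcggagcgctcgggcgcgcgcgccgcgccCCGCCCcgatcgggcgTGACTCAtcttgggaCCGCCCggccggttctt
Cd44: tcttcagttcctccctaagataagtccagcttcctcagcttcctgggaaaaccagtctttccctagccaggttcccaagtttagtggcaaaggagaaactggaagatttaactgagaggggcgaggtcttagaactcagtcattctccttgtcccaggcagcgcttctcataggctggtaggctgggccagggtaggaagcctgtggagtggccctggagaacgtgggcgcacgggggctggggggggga
Rdx, start 1: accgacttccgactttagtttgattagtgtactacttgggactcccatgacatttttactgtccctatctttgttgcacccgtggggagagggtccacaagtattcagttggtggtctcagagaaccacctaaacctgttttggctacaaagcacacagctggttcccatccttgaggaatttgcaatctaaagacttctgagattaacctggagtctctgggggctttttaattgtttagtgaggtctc
Rdx, start 2: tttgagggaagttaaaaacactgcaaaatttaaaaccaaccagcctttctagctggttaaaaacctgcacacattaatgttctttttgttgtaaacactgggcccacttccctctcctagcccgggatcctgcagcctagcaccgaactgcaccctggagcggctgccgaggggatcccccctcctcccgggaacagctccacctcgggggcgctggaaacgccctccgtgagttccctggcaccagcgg
The Ezr window held 1 AP-1 match, 32 bases before the start, and 2 GC boxes that did not overlap it. The AP-1 letters were found in 4.46% and the GC box in 32.7% of all 32851 windows of this length. Neither the Cd44 nor the Rdx windows held any of the 4 motifs, which says only that these letters are not in these windows. The GC content was 67.2% in the Ezr window, 56.4% in the Cd44 window, and 45.2% and 56% in the Rdx windows, with a median of 52.4% over all windows.

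Kinases and other switches of ERM proteins and merlin are given first. Pak1, a p21-activated kinase that phosphorylates merlin, was 16.4-fold lower in LM8 than in Dunn cells (log2 difference -4.03, SE 0.28, adjusted p = 2.44e-06), with levels of -1.45 ± 0.47 (SD, n = 6) in Dunn and -5.48 ± 0.47 (SD, n = 6) in LM8. The ERM kinase gene Slk was higher in LM8 (1.38, SE 0.40, adjusted p = 0.0284), a call that was lost without any 1 of the 3 LM8_91 arrays (1.26 to 1.39). Of the 17 genes of this list, 1 rose and 6 fell with passages pooled. For comparison, 5.71% of the 20142 genes tested by their brightest probe were called higher and 37.9% lower. The median difference was -0.33 in the list and -0.66 over all genes. For genes whose brightest probe was a bright probe, it was -0.30 in the list (n = 10) and -0.38 over all such genes.

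Among the 15 membrane partners of ERM proteins, 2 rose and 4 fell, where 5.71% of all genes rose and 37.9% fell. Slc9a3r2, the scaffold NHERF2 that binds the FERM domain, was 6.73-fold higher in LM8 (2.75, SE 0.45, adjusted p = 0.00202), with -4.50 ± 1.15 (SD, n = 6) in Dunn and -1.75 ± 0.26 (SD, n = 6) in LM8. Its second probe was also called higher (1.66). Spn, the sialoglycoprotein CD43 that is anchored by ERM proteins, was 3.14-fold higher (1.65, SE 0.36, adjusted p = 0.0104), as was its second probe (1.65).

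Of 16 genes of hyaluronan synthesis, turnover and reception, 0 rose and 7 fell with passages pooled, where 37.9% of all genes fell, so the count is near that of all genes. In only 4 of the 16 was the brightest probe a bright probe, and 1 of these 4 was called lower. Hyal2, a hyaluronidase, was 2.45-fold lower in LM8 (-1.29, SE 0.20, adjusted p = 0.00128). Hapln1, a link protein that stabilises hyaluronan aggregates, was higher in Dunn_86 (1.29 ± 0.96, SD, n = 3) than in Dunn_25 (-3.01 ± 1.35, SD, n = 3), without overlap of the arrays but with an adjusted p of 0.452. It was well above background on 1 of 3 Dunn_25 arrays, so the lower level is largely at background.

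Of 16 genes for CD44 ligands, sheddases, partners and splicing regulators, 1 rose and 6 fell, where 5.71% of all genes rose and 37.9% fell. Egfr, a receptor kinase that can form complexes with CD44, was at least 7.33-fold higher in LM8, since it was well above background on all 6 LM8 and on 0 of 6 Dunn arrays (adjusted p = 0.000567), and its 2 other probes were called higher too. This bound holds for the processing used here. Over the 14 alternatives the log2 difference of Egfr was 0.91 to 5.72, and 1 of them lost the call. Cd74, which signals together with CD44, was 3.36-fold lower in LM8 (-1.75, SE 0.44, adjusted p = 0.0183).

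Among 23 Hippo pathway genes, 0 rose and 6 fell, where 37.9% of all genes fell. The YAP target Ccn1 was 3.18-fold lower in LM8 (-1.67, SE 0.26, adjusted p = 0.00126), and the angiomotins Amotl2 (-1.41, SE 0.20, adjusted p = 0.000783) and Amot (-1.19, SE 0.24, adjusted p = 0.00719), which bind merlin and YAP, were lower as well. The YAP target Ccn2 did not pass the test and had a difference of the opposite sign (0.84, SE 0.40, adjusted p = 0.0988). Ankrd1, also a YAP target, did not pass it either and had a negative difference (-1.46, SE 0.64, adjusted p = 0.0774). Tead4, a DNA-binding partner of YAP, differed by -3.28 (SE 0.30, adjusted p = 2.25e-05). Neither Tead4 nor Ankrd1 was well above background on every array. Ccn2, Ankrd1 and Tead4 are named here after their values were seen. The median difference was -0.42 in this list, -1.25 in the hyaluronan list, -0.26 among the membrane partners and -0.61 among the CD44 genes. Over only those genes whose brightest probe was a bright probe, it was -0.43 (n = 15), -0.45 (n = 4), 0.38 (n = 8) and -0.70 (n = 6), in the same order.

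Other proteins with a FERM domain, to which ezrin, radixin, moesin and merlin are related, were called lower in 9 and higher in 0 of 24 genes, where 37.9% of all genes were lower. Of the 11 genes whose brightest probe was a bright probe, 3 were called lower. The median difference of these 11 was -0.36. The talins, which activate integrins, fell for both genes, with Tln2 at -1.51 (SE 0.18, adjusted p = 0.000213) and Tln1 at -1.22 (SE 0.28, adjusted p = 0.0122), and the second probe of each was called lower too (-1.94 and -1.39). Epb41l2, a relative of erythrocyte protein 4.1, differed by -1.53 (SE 0.33, adjusted p = 0.0102), and the median of the list was -0.95.

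**Figure D4:**
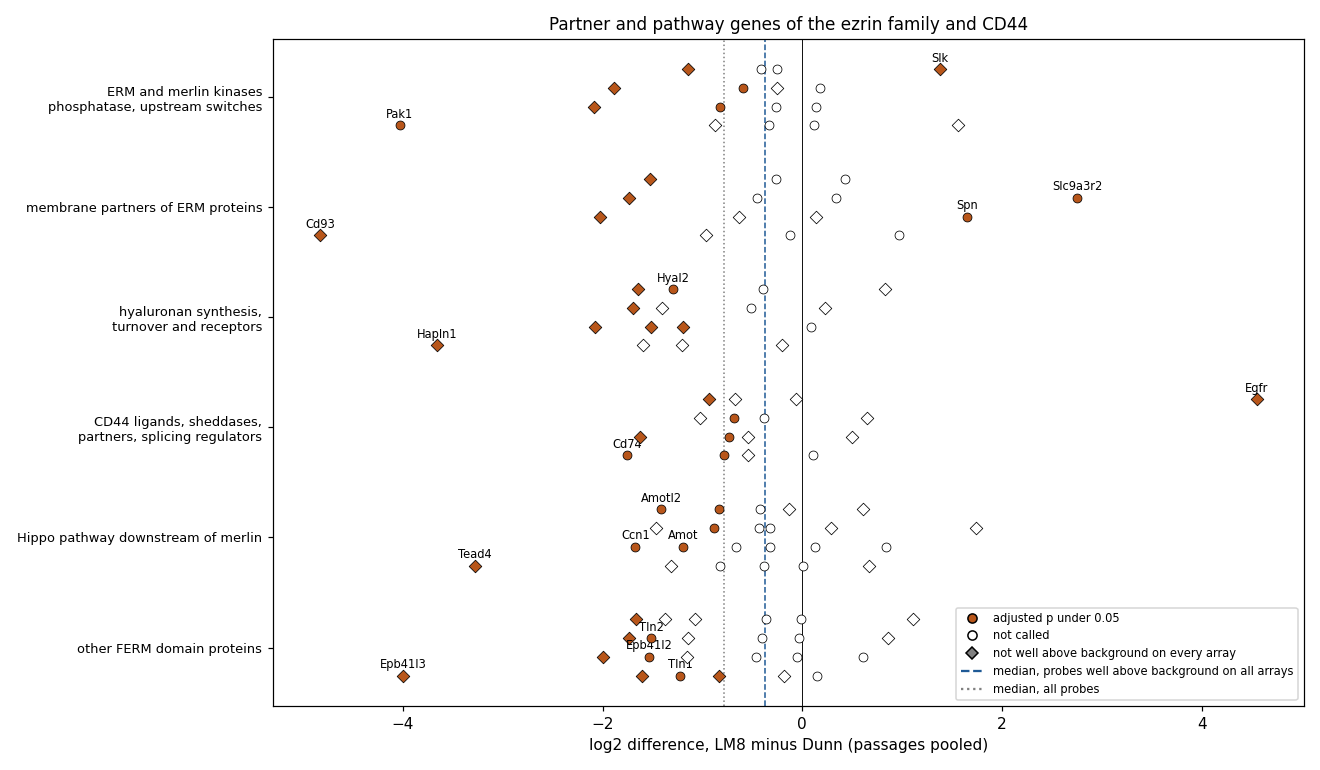
Log2 difference LM8 minus Dunn with passages pooled (x axis) of the tested genes of 6 lists of partner and pathway genes (y axis), each gene by its brightest probe. Filled symbols have an adjusted p under 0.05, diamonds were not well above background on every array, and labels mark genes named by the rule or called with a log2 difference beyond 3. Cd93 (-4.83), Pak1 (-4.03), Epb41l3 (-4.00), Hapln1 (-3.66) and Tead4 (-3.28) lie far to the left and Egfr (4.55) far to the right, and most filled symbols lie left of the median of bright probes (-0.37).

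Beyond the genes named so far, Cd93, a membrane partner (-4.83, SE 0.51, adjusted p = 7.54e-05), Epb41l3, another protein 4.1 relative (-4.00, SE 0.34, adjusted p = 1.2e-05), and Hapln1 (-3.66, SE 0.99, adjusted p = 0.0243) were also called lower between the lines by a log2 difference beyond 3. None of them was well above background on every array, and they are named here after their values were seen.

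Over all 6 lists, 4 of 111 genes were called higher and 38 lower between the lines, or 37.8% as compared to 43.6% of all genes tested by their brightest probe. In the table without scaling, Pak1 (-2.86), Slk (2.55), Slc9a3r2 (3.92), Spn (2.82) and Egfr (5.72) were still called, whereas Hyal2 (-0.13), Cd74 (-0.58), Ccn1 (-0.50), Amotl2 (-0.24), Amot (-0.02), Epb41l2 (-0.36), Tln2 (-0.34) and Tln1 (-0.05) were not.

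At early passages alone, 9 of 111 list genes were called between the lines, or 8.11% as compared to 4.56% of all genes. Pak1 was lower in LM8_24 (-4.73, SE 0.31, adjusted p = 0.00111), as were Amotl2 (-1.74, adjusted p = 0.0315), Epb41, the erythrocyte protein 4.1 itself (-1.95, adjusted p = 0.0256), and Tln2 (-1.47, adjusted p = 0.0486). Slc9a3r2 was higher (2.19, adjusted p = 0.0354), and Egfr was at least 10.2-fold higher (adjusted p = 0.0104). Over the 12 alternatives the log2 difference of Egfr was 0.95 to 6.44, and 2 of them lost the call. The hyaluronan receptor Stab1 was well above background on all 3 LM8_24 and on 0 of 3 Dunn_25 arrays, with a fold of at least 3.08 and an adjusted p of 0.0554, but its difference turned to -0.60 after normexp background correction. When single arrays were left out, Pak1 kept its call in 6 of 6 fits, Egfr in 3, Amotl2, Epb41 and Slc9a3r2 in 2 and Tln2 in 1. With the slide as a block, 4 of the 6 genes called and named lost their call, and the share of all probes called was 0.94% in place of 3.75%.

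At late passages alone, 10 of 111 list genes were called, or 9.01% as compared to 3.83% of all genes. Pak1 (-3.34, adjusted p = 0.00841), the ERM kinase gene Stk10 (-2.13, adjusted p = 0.0159), Ccn1 (-1.89, adjusted p = 0.0305), Tln2 (-1.55, adjusted p = 0.0362) and Tead4 (-3.15, adjusted p = 0.00442), were lower in LM8_91. So was Hapln1, by 39.9-fold (-5.32, SE 0.54, adjusted p = 0.0101). Cd93, a receptor with an ERM-binding tail, and the protein 4.1 relative Epb41l3 were well above background on 0 of 3 LM8_91 arrays, and their levels there were lower by at least 9.73-fold (Cd93, adjusted p = 0.0215) and 6.85-fold (Epb41l3, adjusted p = 0.00882). Over the 12 alternatives the log2 difference was -5.31 to -1.79 for Cd93 and -4.85 to -1.66 for Epb41l3. The call was lost in 3 of them for Cd93 and in 2 for Epb41l3. Spn was higher (1.88, adjusted p = 0.0173) and Egfr at least 5.26-fold higher (adjusted p = 0.0345). When single arrays were left out, Tead4 kept its call in 6 of 6 fits, Epb41l3 in 5 (lost without the third LM8_91 array) and Pak1 in 3 (lost without any 1 LM8_91 array). Cd93, Spn and Hapln1 kept it in 2 and Stk10, Ccn1, Tln2 and Egfr in 1. With the slide as a block, all 10 of these genes lost their call, and the share of all probes called was 0.252% in place of 2.91%.

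With passaging of LM8 cells, 1 of 111 rose and 4 fell, or 4.5% as compared to 2.82% of all genes. Those that fell were Ccn2, a YAP target (-1.71, SE 0.17, adjusted p = 0.00437), Egfr (-1.92, SE 0.22, adjusted p = 0.00744), the ERM-binding adhesion molecule Icam2 (-1.40, SE 0.22, adjusted p = 0.0274, called in 1 of 6 fits with an array left out) and the hyaluronan receptor Stab1, at least 13-fold lower in LM8_91, where no array was well above background (adjusted p = 0.000774). Over the 12 alternatives the log2 difference of Stab1 was -3.73 to -1.45, and 1 of them lost the call. The gene that rose was Srgn, the proteoglycan serglycin that binds CD44 (1.81, adjusted p = 0.0371), named here after its value was seen. In Dunn cells 0 of the 111 genes were called with passaging by limma, where 0.00501% of all genes were, and 1 (Hapln1) had an unadjusted p under 0.05, as compared to 6.69% of all genes.

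Genes with the most similar pattern over the arrays were sought among those whose brightest probe was a bright probe, and the Pearson correlations are a description over arrays that share lines and slides. For Ezr these were Prss35 (0.987), Zfp36l2 (0.975) and Hoxc9 (0.973) over 12 arrays. Cd44 A_55_P2166501 was most like Ints4 (0.991), Hdlbp (0.990) and Dazap1 (0.988), and Nf2 A_55_P2423646 most like Pigq (0.938), Ints5 (0.934) and A130010J15Rik (0.926). Over 11 arrays, Msn was most like Gpalpp1 (0.969), Gxylt1 (0.951) and Fbxo46 (0.949), and Rdx A_55_P2183172 like Farsa (0.930) and Fyco1 (0.905).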

How the data were processed

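RNA of 12 samples was measured on 1-colour Agilent mouse 4x44k v2 arrays, 3 for each of Dunn_25, Dunn_86, LM8_24 and LM8_91. The deposited scanner files hold intensity values (gProcessedSignal) that the authors made with Agilent Feature Extraction 10.7.3, which subtracts background, and a deposited table holds the same intensity of all arrays without scaling between them. Groups were taken from the sample titles. Here, spots flagged as outliers were left out, log2 signals of a probe's spots were averaged, and each array was scaled by subtracting its own 75th percentile. Of 39429 probes, 67.4% were matched to a RefSeq gene. Differences were tested with limma 3.58.1 (R 4.3.3) over all probes with at least 2 values in each group, with Benjamini-Hochberg adjustment over all probes tested, and a probe was called at an adjusted p under 0.05. A spot is well above background as Feature Extraction calls it. The number of arrays limits the precision.

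The members and gene lists were chosen with earlier results of these data known. A gene with several probes is first described by its probe of highest mean signal. Of each list, up to 4 genes called over 2-fold and well above background on every array of the higher group were named per comparison, or, where none was called, up to 2 over 2-fold at an unadjusted p under 0.05 without overlap. "At least" folds use, for the dim group, the lowest signal well above background on each array or the probe's own if higher. They hold for the processing used here, and differences could be smaller under the alternatives. Alternatives were quantile normalization, another percentile, no scaling, normexp (offset 50, on median spot signals, since mean signals are not in the files used here), a floor, a filter, gene means, 1 fit of all arrays, the slide as a block, array weights, passage as a covariate, the methods' t-test and leaving out arrays. Keeping flagged spots and leaving out 2 arrays together were chosen after seeing the data. The replicate number is the slide. Deviations from the group means of same-slide arrays correlated between Dunn_25 and Dunn_86 at 0.683, 0.641 and 0.222. The Dunn passage differences given in the Results nevertheless come from the fit without pairing, and the slide as a block was an alternative. The block left the count of members called there at 0. The fit was tested on simulated data with independent noise. These held neither the general shift between the lines nor the correlation of same-slide arrays, so the fit was not tested under either. A few marker and similar-pattern genes are not reported here.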

Additional observations from a re-analysis of the deposited data

Results flagged for a closer look

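In 4 of 20 sets of 5 or 6 arrays of a line (10 member probes in 2 lines), 1 array lay further from its neighbours than Dixon's 95% limit allows, which chance gives in about 1 of 20 sets. In Dunn cells the third Dunn_25 array was the highest in Rdx A_51_P430950 (4.07, next 3.12) and the lowest in Msn (1.61, next 3.22) and in Cd44 A_55_P2064043 (-0.77, next 1.47). The first Dunn_86 array was the highest in Nf2 A_52_P555913 (-1.57, next -2.32). The third Dunn_25 array was also the dimmest, with a 75th percentile of 287.2 and 1483 flagged spots, and the part of either in these values was not tested. No set of LM8 arrays had such a value.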

How the results depend on the processing

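The count of 4 member probes called between the lines with passages pooled was 3 to 5 under all alternatives but the deposited table without scaling, where it was 0, and 3 to 4 when single arrays were left out. The share of all features called was 10.1% to 70% under these alternatives and 22.4% without scaling. Percentages in brackets below are the shares of all probes or genes tested that were called in the same setting. Member counts were 0 throughout for both passage comparisons and for their difference. At early passages the count of 0 became 2 with quantile normalization (8.75%) and 1 with gene means (6.52%) or the methods' t-test (2.64%). It became 3 with a floor (53%), a filter (21.2%) or 1 fit of all arrays (10.6%), and 5 with array weights (55.1%). With single arrays left out it was 0 to 3, and only leaving out the second Dunn_25 array gave 3 (45.2%). At late passages the count of 0 became 2 with quantile normalization (6.83%), 4 with a filter (20.2%) and 1 with 1 fit (6.52%). It became 3 with array weights (14.1%) or the methods' t-test (4.91%). With single arrays left out it was 0 to 1, the first Dunn_86 array giving 1 (8.32%). With the slide as a replicate block the counts were 4 (pooled) and 0 (early, late, both passage comparisons and their difference), and no member probe changed sides. Among the pathway genes named as called, the block lost 0 of 13 calls pooled, 4 of 6 early, 10 of 10 late and 1 of 4 between LM8 passages. Deviations of same-numbered arrays correlated above 0.1 in 12 of 18 pairs (-0.23 to 0.683), and in all 3 pairs only between Dunn_25 and Dunn_86. The main fits used no pairing, in that comparison as in the others.

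Some differences changed sign. Of the called ones, those of Ezr, Rdx A_51_P430950 and Cd44 A_55_P2166501 did so in the table without scaling, whose general shift is upward. There, pooled differences were 0.14 (Ezr), 0.53 and 0.18 (Rdx), 1.08 (Msn), 0.76 and 1.01 (Nf2), 0.15, 0.63 and 0.45 (Cd44). Early ones were 0.25, 0.49, 0.30, 0.98, 1.34, 0.25, 1.34 and 0.60, in the same order without Msn. Late ones were 0.04, 0.60, 0.06, 0.11, 0.54, 0.67, 0.05 and 0.29, without Cd44 A_55_P2064043. Passage differences there were 0.73 (Ezr), 0.15 and 0.43 (Rdx), 0.75 (Nf2), 0.55 and 0.48 (Cd44) in Dunn and 0.26 and 0.19 (Rdx), 0.32 (Nf2), 0.34 and 0.23 (Cd44) in LM8, and their difference between lines -0.21, -0.25, -0.43, -0.20, -0.31 and -0.26. With the percentile taken over probes well above background, Msn was 0.22 and Nf2 A_52_P555913 0.18 pooled, 0.33 early and 0.04 late, Cd44 A_55_P2064043 0.32 early, Ezr 0.04 and Nf2 A_55_P2423646 0.06 in Dunn, 0.02 and Cd44 0.04 in LM8, and Nf2 -0.05 for the difference. Normexp gave Msn 0.11 pooled, Nf2 0.05 and -0.36 and Cd44 -0.48 in Dunn, -0.02, -0.06 and 0.45 for the difference, and Stab1 -0.60 early. Array weights gave Nf2 A_52_P555913 0.04, 0.08 late, -0.12 in Dunn and 0.34 for the difference, and Cd44 1.02 early, -0.23 in Dunn and 0.33 in LM8. Gene means gave 0.02 and 0.07 in Dunn and 0.07 and 0.13 in LM8 (Nf2, Cd44), quantile normalization -0.32 (Cd44, Dunn), kept flagged spots 0.03 (Msn), 0.09 and 0.08 (early), and leaving out both arrays 0.07 (Nf2). The cause of these changes was not tested.

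With single arrays left out, the ranges that crossed 0 were -0.55 to 0 (Msn) and -0.23 to 0.01 (Nf2 A_52_P555913) pooled, -0.44 to 0.58 (Msn) and -0.91 to 0.31 (Cd44 A_55_P2064043) early, -0.43 to 0.15 (Nf2) late, -0.10 to 0.49 (Nf2), -0.32 to 0.82 and -1.20 to 0.32 (Cd44) in Dunn, -0.20 to 0.07 (Rdx), -0.11 to 0.06 (Nf2), -0.20 to 0.09, -0.15 to 0.90 and -0.70 to 0.34 (Cd44) in LM8, and -0.31 to 0.28 (Nf2), -0.39 to 0.78 and -0.45 to 1.07 (Cd44) for the difference. Of the pathway genes named in the pooled comparison, none reversed in 338 refits and 16 refits lost the call. The lines and the passages differ in brightness, and 3 arrays a group limit what the single-passage tests can show.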
